A study of Mus musculus with 9 samples.

Results

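The comparison described here set MC3T3-E1 cells at 24 h after low-intensity pulsed ultrasound (LIPUS) against the same cells at 6 h after it. Its members were the 3 arrays labelled LIPUS-24 h and the 3 labelled LIPUS-6 h, which are 6 of the 9 arrays of the study. The other 3 arrays, of mock-treated cells, served only as a reference level. MC3T3-E1 is an established line of preosteoblasts from newborn mouse calvaria, and the strain is C57BL/6. All cells, controls included, had been kept for 14 days in medium with serum, L-ascorbic acid and β-glycerophosphate, the supplements that let osteoblasts lay down and mineralize matrix, and were then trypsinized and reseeded. The treated cells received a single exposure of 20 min at 30 mW/cm2 and 1.5 MHz, given 24 h after reseeding, and were then left for a further 6 h or 24 h. The control dish was mock-treated and its culture time is not given in the sources used here. The 24 h arrays therefore differ from the 6 h arrays in the time after LIPUS and in the time since reseeding, and these cannot be told apart.

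LIPUS is used on healing bone, where it reaches cells as a small cyclic pressure. Osteoblasts respond to mechanical load with an early wave of transcription factor genes, such as *Egr1* and *Fos*, which rise within minutes and fall again. Genes of matrix, growth factors and the cell cycle follow later. The question of this comparison was which transcripts moved only after 6 h, and which had moved at 6 h and came back.

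Each array gave the level of transcripts as 45101 probe sets on the log2 scale, made by robust multi-array average (RMA). After 64 hybridization controls were set aside, 45037 probe sets were compared. A single gene symbol was known for 34945 of them, for 18193 genes. The arrays of 1 experiment lay close together and the experiments lay apart, since the median level was 4.89 to 4.93 in experiment 1, 5.15 in experiment 2 and 4.97 to 5.01 in experiment 3. Arrays were paired by their number, since 9 of 9 arrays had their best correlation with one that carried the same number. The level was exactly the same at 6 h and 24 h for 1.27% of the probe sets in experiment 1, 47.0% in experiment 2 and 46.3% in experiment 3. Experiment 1 also had the widest spread of differences, with a standard deviation of 0.222 on the log2 scale against 0.119 and 0.135. *Actb*, which encodes a cytoskeletal actin, lay at 13.96, 13.99 and 13.63 at 6 h and at 13.95, 14.01 and 13.63 at 24 h in experiments 1, 2 and 3 (adjusted p = 0.987 from limma). The list of reference genes, with 11 measured, held 0 changed ones.

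Between 6 h and 24 h transcripts of some genes of bone matrix, growth factor and hormone supply, contraction, the circadian clock and ribosome assembly rose, and those of most mitosis genes, of *Id1*, *Id2* and *Id3* and of a few epithelial and cartilage genes fell. By limma with the experiment as a block, 909 probe sets changed at an adjusted p under 0.05, which is 2.02% of those tested. Of these 513 were higher at 24 h (1.14%), for 390 genes, and 396 were lower (0.879%), for 311 genes. The direction was the same in every experiment for all 909. The changes were small. The median log2 difference was 0.32 among the higher probe sets and -0.30 among the lower ones. A mean ratio of at least 2 was reached by 10 of the higher probe sets, and 1 of the lower ones had a mean ratio of that size in the downward direction. Nearly all of the changed probe sets, 876, belonged to the 40% with the highest mean level. In whole cultures, fewer cells of a kind and less RNA in each cell cannot be told apart.

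Some of these changes held their size in each repeat. A ratio of at least 1.5 in all 3 experiments was found for 34 higher probe sets (0.0755%, 27 genes) and 18 lower ones (0.04%, 14 genes), and each of them was also among the 909. The count of 909 rested on the pairing and on single experiments, since limma called 0 probe sets without the block, 0 without experiment 1, 44 without experiment 2 and 1498 without experiment 3. Of the 909 calls 56.4% were higher, and of the 1498 without experiment 3 45.6%. Since no probe set passed without experiment 1, this holds for every call given below. None of the 144 changed probe sets singled out by the naming rule turned its direction when 1 experiment was left out, but none could. The direction of each was already the same in every experiment. P-values measure the spread between these 3 experiments only.

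**Figure D1:**
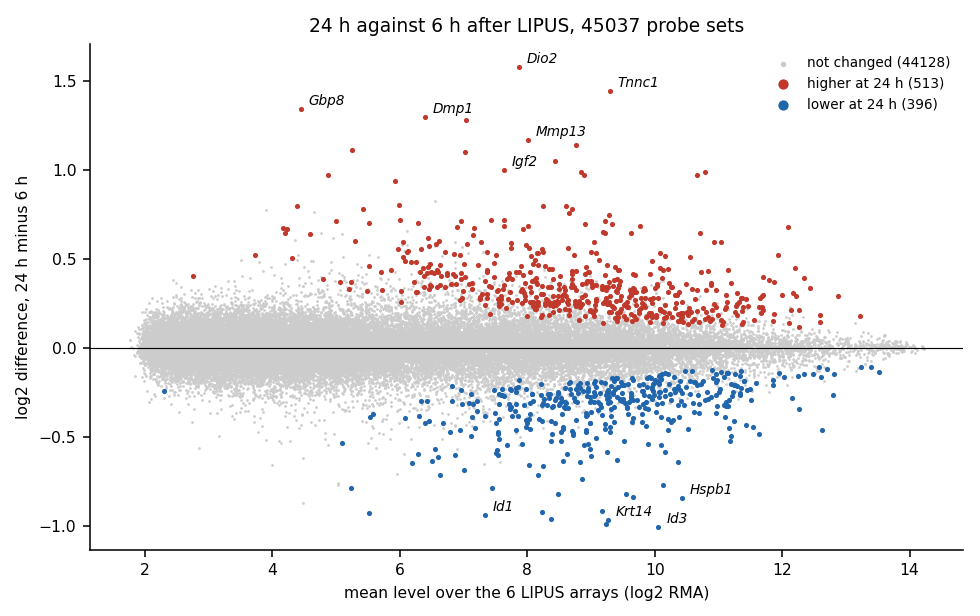
The mean level over the 6 LIPUS arrays (log2 RMA, horizontal axis) is plotted against the log2 difference of 24 h minus 6 h (vertical axis), with 1 point for each of 45037 probe sets. The 513 higher and 396 lower probe sets called by limma are coloured, and the named extremes run from 1.58 for *Dio2* to -1.01 for *Id3*.

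Most of the changes were seen only after 6 h. For each changed probe set the level of the mock control was placed on a scale on which 0 is the 6 h level and 1 is the 24 h level. A change was called late where the control lay at 0.25 or below and nearer to the 6 h level in all 3 experiments, an early shift that reversed where it lay at 0.75 or above and nearer to the 24 h level in all 3, and crossing where it lay between these bounds. Of the 909 changed probe sets 791 were late (87.0%), 98 crossing, 6 reversing and 14 none of these. The median position was -0.06 for the higher and 0.07 for the lower probe sets. Over all 44843 probe sets with any difference, however small, the median was 0.23. Of these 10.1% met the late, 17.0% the crossing and 0.754% the reversing rule, and 72.2% met none. A closer reference is the 924 probe sets that did not pass but differed by at least 0.25 on the log2 scale. Of these 31.7% were late, 32.8% crossing and 2.06% reversing. The 6 h level enters both differences, so these shares are a description with no test. Among the late probe sets, 126 already lay beyond the control in the later direction at 6 h, by more than 0.25 of the later step, 97 of them rising and 29 falling.

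Direction and timing went together unevenly. Of the 513 higher probe sets 481 were late and 27 crossing, and 0 were reversing. Of the 396 lower ones 310 were late, 71 crossing and 6 reversing. Without experiment 3 the crossing probe sets of both directions numbered 369 and the reversing ones 109, without experiment 2 they numbered 3 and 0, and without experiment 1 0 and 0. The lower crossing probe sets stood a median of 0.13 above the control at 6 h and 0.17 below it at 24 h, on the log2 scale. Against the control itself, limma called 0 probe sets at 6 h (smallest adjusted p 0.959), so no early shift passed. An unadjusted p under 0.05 from limma was found for 1575 of the 45037 probe sets, fewer than this threshold would give on average with no shift. This count cannot show that early shifts were absent.

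**Figure D2:**
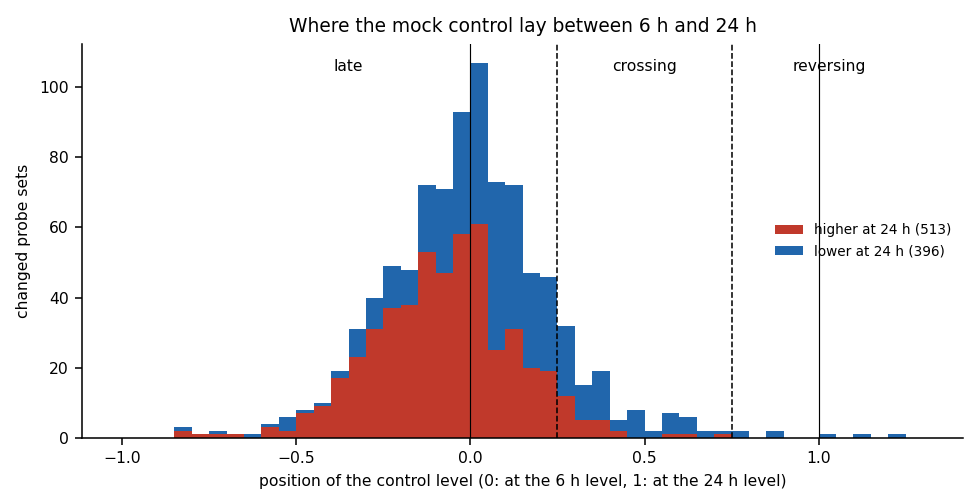
Histogram of the position of the mock control for the changed probe sets, with the position on the horizontal axis (0, at the 6 h level, and 1, at the 24 h level) and the number of probe sets on the vertical axis. The dashed lines are the bounds of 0.25 and 0.75. Most of the 513 higher and 396 lower probe sets lie around 0, with a tail of lower ones to the right.

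Several bone matrix genes rose late. *Dmp1* encodes an acidic matrix protein of osteocytes and mineralizing bone. Its level was 5.82, 5.79 and 5.65 at 6 h and 6.99, 7.14 and 7.02 at 24 h, against 5.60, 5.56 and 5.53 in the control. The 24 h arrays were all above every 6 h and control array, and the mean ratio of 24 h to 6 h was 2.46 ± 0.178 (SD, n = 3 experiments; adjusted p = 2.61e-04 from limma). A second probe set of *Dmp1* gave a log2 difference of 1.28. *Mmp13*, which encodes the collagenase of cartilage and bone, lay at 7.54, 7.71 and 7.04 at 6 h and at 8.65, 8.78 and 8.36 at 24 h. The groups did not overlap, and the ratio was 2.25 ± 0.221 (adjusted p = 0.00157 from limma). *Htra1*, which encodes a secreted serine protease, rose by 0.99 from 10.21, 10.58 and 10.12 to 11.31, 11.50 and 11.06.

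The small leucine-rich proteoglycans, which bind collagen fibrils and order their assembly, leaned upward. Of 14 measured genes 5 were higher and 0 lower, with a median log2 difference of 0.16, and 11 lay above 0. Over 1 probe set for each of 18193 genes, 318 (1.75%) were higher and 271 (1.49%) lower, and the median was 0.00. The counts of the other lists are to be read beside these shares. *Lum*, which encodes lumican, was among the most abundant risers, at 11.66, 11.82 and 11.75 at 6 h and 12.39, 12.55 and 12.33 at 24 h (log2 difference 0.68, standard error 0.04, adjusted p = 5.19e-04 from limma). Its 24 h arrays lay above all others. *Omd*, which encodes osteomodulin, a proteoglycan of bone, rose by 0.74, *Aspn* by 0.37 and *Ogn* by 0.29. The study had picked *Lum* and *Omd* on these samples.

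Proteases and matrix glycoproteins moved less evenly. Among 28 matrix protease and inhibitor genes, 8 were higher (28.6%, against 1.75% of all genes) and 1 lower, with a median of 0.03. Besides *Mmp13* and *Htra1* these included *Adamts1*, an aggrecan-cleaving protease gene, at 0.56, and *Mmp9*, a gelatinase gene, at 0.48. Among 44 collagens and matrix glycoproteins 4 were higher and 5 lower, with a median of 0.00. *Abi3bp*, which encodes a matrix protein that binds cells, rose by 1.05, *Thbs1*, which encodes thrombospondin 1, by 0.76 and *Matn4*, which encodes matrilin 4, by 0.65. *Vcan*, which encodes the large proteoglycan versican, fell by 0.54 at the named probe set. Of 24 measured osteoblast genes 3 were higher and 1 lower, with a median of -0.01. *Cd200*, which encodes a surface glycoprotein, rose by 0.78, and *Capg*, which encodes an actin-capping protein, fell by 0.39. The osteoblast list therefore had 4 changed members, of which *Dmp1* and *Omd* are the matrix genes.

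Hormone and growth factor genes gave some of the largest late rises. *Dio2* encodes the deiodinase that turns thyroxine into the active thyroid hormone inside the cell. Its level was 6.93, 7.40 and 6.91 at 6 h and 8.70, 8.90 and 8.38 at 24 h, against 6.89, 7.18 and 6.65 in the control. Each 24 h array lay above every array of the other groups, with a ratio of 3.00 ± 0.345 (SD, n = 3 experiments; adjusted p = 1.68e-04 from limma). *Klf9*, a thyroid hormone and glucocorticoid target, rose by 0.20. Of 10 measured genes of the thyroid list these 2 were higher and 0 lower.

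*Igf2*, the insulin-like growth factor that is expressed from the paternal copy of the gene, lay at 7.15, 7.38 and 6.89 at 6 h and at 8.17, 8.42 and 7.82 at 24 h. The groups did not overlap, and the ratio was 2.00 ± 0.0756 (adjusted p = 1.43e-04 from limma). Another probe set of *Igf2* had a log2 difference of -0.03. Of 18 genes of the insulin-like growth factor system 6 were higher (33.3%) and 3 lower (16.7%), with a median of 0.04. Of all genes 1.75% were higher and 1.49% lower. The ligand gene *Igf1* rose by 0.33, the binding protein gene *Igfbp2* by 0.34 and *Irs1*, which encodes the adaptor below the receptor, by 0.40. Of 16 imprinted genes 4 were higher and 1 lower, with a median of 0.02. Next to *Igf2* the higher ones were *Plagl1*, a zinc finger gene, at 0.59, *Mest*, which encodes a hydrolase-like protein, at 0.44 and *Sgce*, which encodes a sarcoglycan, at 0.22. Another probe set of *Sgce* had -0.08.

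Some growth factor genes rose. Of 32 growth factor genes 5 were higher (15.6%, against 1.75% of all genes) and 0 lower, with a median of 0.05. *Gas6*, which encodes the ligand of the TAM receptors, rose by 0.51 and *Mertk*, which encodes one of these receptors, by 0.24, while *Fgfr2* and *Fgfr1*, which encode receptors of fibroblast growth factors, rose by 0.22 and 0.19. Other probe sets of *Gas6* and *Fgfr2* ranged down to -0.11 and -0.07. *Flt1*, which encodes a receptor of vascular endothelial growth factor, fell by 0.37 (adjusted p = 0.0156 from limma). *Crabp1*, which encodes a cytoplasmic retinoic acid binding protein, lay at 4.34, 5.19 and 4.58 at 6 h and at 5.74, 6.07 and 5.63 at 24 h. Its groups did not overlap (log2 difference 1.11, standard error 0.12, adjusted p = 0.00686 from limma). *Adh1*, which encodes an alcohol dehydrogenase that also acts on retinol, rose by 0.54, and these were the only changed genes of the 19 on the retinoid list.

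The aryl hydrocarbon receptor genes did not move as a group. Of 9 measured 1 was higher and 2 lower, with a median of 0.04, and 5 lay above 0. *Ahr*, which encodes the receptor, lay at 8.85, 9.24 and 8.85 at 6 h and at 9.58, 9.91 and 9.54 at 24 h, with no overlap (log2 difference 0.70, standard error 0.05, adjusted p = 0.0016 from limma). *Nqo1*, which encodes a quinone reductase, lay at 9.66, 9.97 and 9.54 at 6 h and at 8.95, 9.35 and 8.99 at 24 h, also with no overlap, and fell by 0.63. *Cyp1b1*, which encodes a cytochrome P450, fell by 0.42 from a level that at 6 h was 0.24 above the control. A probe set of *Ahr* other than this one had a log2 difference of -0.01, and the probe sets of *Cyp1b1* ranged from -0.50 to 0.05.

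**Figure D3:**
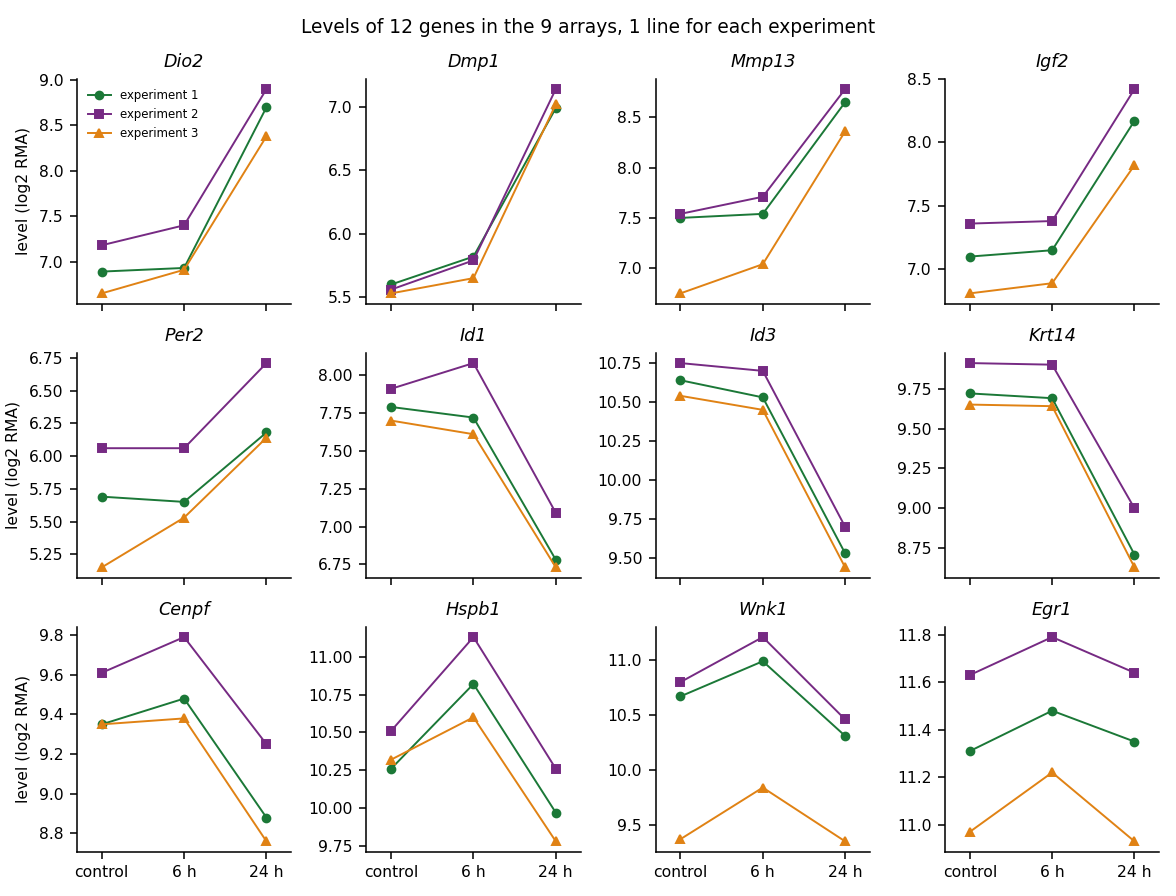
Levels of 12 genes (log2 RMA, vertical axes, each with its own range) in the mock control, at 6 h and at 24 h after LIPUS, with 1 line for each of the 3 experiments. *Dio2*, *Dmp1*, *Mmp13*, *Igf2* and *Per2* rise and *Id1*, *Id3*, *Krt14* and *Cenpf* fall between 6 h and 24 h, while *Hspb1*, *Wnk1* and *Egr1* stand above the control at 6 h in every experiment and drop by 24 h.

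Some genes of contraction and of the serum response rose late. *Tnnc1*, which encodes the calcium-binding troponin C of slow muscle and heart, lay at 8.51, 8.80 and 8.41 at 6 h and at 9.97, 10.24 and 9.85 at 24 h. The 24 h arrays were above all 6 h and control arrays, and the ratio was 2.72 ± 0.0183 (SD, n = 3 experiments; adjusted p = 2.1e-05 from limma). Of 28 contractile genes 6 were higher (21.4%, against 1.75% of all genes) and 0 lower, with a median of 0.04. They included *Tnnt1*, which encodes a troponin T, at 0.49, *Mylk*, which encodes myosin light chain kinase, at 0.45 and *Lmod1*, which encodes a leiomodin, at 0.40. *Srf*, which encodes the transcription factor that drives many of these genes in other cells, rose by 0.54. None of the 17 markers of skeletal muscle itself changed, and their median level was 3.90 at 6 h and 4.08 at 24 h, so the list as a whole stayed dim.

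The immediate early genes did not move as a group. Of 39 measured, 6 were higher and 3 lower, with a median of -0.02. *Egr3*, a zinc finger factor gene, lay at 8.52, 8.87 and 8.27 at 6 h and at 9.06, 9.65 and 9.04 at 24 h, with no overlap, and rose by 0.69 (adjusted p = 0.00483 from limma). Another probe set of *Egr3* had a log2 difference of 0.01. *Nr4a1*, which encodes an orphan nuclear receptor, rose by 0.68 and *Myc* by 0.53. These levels at 6 h lay within 0.14 of the control on the log2 scale, so the rises were late. *Egr1* went the other way and is described with the reversing genes. Of 23 genes of the YAP program, which follows cell tension and density, 4 were higher and 1 lower, with a median of 0.03. *Ccn2*, which encodes connective tissue growth factor, rose by 0.39, *Tgfb2* by 0.34 and *Ankrd1* by 0.32, and *Gadd45b* fell by 0.23.

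Among 27 genes of Wnt signalling 4 were higher (14.8%, against 1.75% of all genes) and 0 lower, with a median of 0.06. *Tnfrsf19*, which encodes a receptor of the tumour necrosis factor family, rose by 0.67, *Dkk2*, which encodes a Wnt co-receptor ligand, by 0.60, *Dact1*, which encodes a modulator of Dishevelled, by 0.56 and *Sfrp2*, which encodes a secreted frizzled-related protein, by 0.24. Only 1 of the 3 probe sets of *Tnfrsf19* changed, and the lowest had 0.01. Of 15 genes of Notch signalling only *Notch1* changed, at -0.29.

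Clock genes moved in opposite directions late. The circadian clock is a loop in which ARNTL (BMAL1) and CLOCK switch on the *Per*, *Cry*, *Nr1d* and PAR bZIP genes, whose products feed back on it. *Arntl*, the activator of the loop, lay at 7.77, 7.92 and 7.65 at 6 h and at 7.14, 7.39 and 7.35 at 24 h. Every 24 h array was below every 6 h and control array, and the log2 difference was -0.49 (standard error 0.07, adjusted p = 0.0157 from limma). *Per2*, a repressor, lay at 5.65, 6.06 and 5.53 at 6 h and at 6.18, 6.71 and 6.14 at 24 h, with no overlap (log2 difference 0.59, standard error 0.10, adjusted p = 0.0308 from limma). *Nr1d2*, which encodes the receptor REV-ERBβ that represses *Arntl*, rose by 0.53 from 9.76, 10.21 and 9.47 to 10.23, 10.73 and 10.08. Its rise was seen within each experiment, though the ranges of the groups overlapped. *Tef*, a PAR bZIP gene, rose by 0.45, as did *Dbp*, another gene of that family, which was picked for mention after its value was seen. *Arntl*, *Per2*, *Nr1d2* and *Tef* each changed at only 1 of their 2 or 3 probe sets. Other probe sets ranged up to -0.03 for *Arntl* and down to 0.10 for *Per2*, 0.02 for *Nr1d2* and 0.13 for *Tef*. Of 18 clock genes 4 were higher and 1 lower, with a median of 0.10, and 13 lay above 0. The samples of the LIPUS groups were taken at different times after reseeding, and with 3 arrays at each of 2 times no phase or period could be measured.

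Genes of ribosome assembly leaned upward by small steps. Of 38 measured genes for rRNA processing and its regulators 12 were higher and 0 lower (31.6% against 1.75% of all genes), and 34 lay above 0. The median log2 difference was 0.14, and it was 0.17, 0.12 and 0.12 in experiments 1, 2 and 3. The share over all genes includes many dim ones, which were rarely called. Among the genes of the 40% brightest probe sets, split by their length in the genome, 2.64% to 4.27% were higher. *Nop56*, which encodes a core protein of box C/D snoRNPs, lay at 10.18, 10.27 and 10.08 at 6 h and at 10.50, 10.59 and 10.33 at 24 h, with no overlap (log2 difference 0.30, standard error 0.03, adjusted p = 0.00254 from limma). *Znhit6*, which encodes an assembly factor of the same particles, rose by 0.44, *Srm*, which encodes spermidine synthase, by 0.38 and *Ppan*, a ribosome biogenesis gene, by 0.33. The letters of the E-box CACGTG, which MYC and CLOCK recognize, stood on either strand in the promoters of 26.7% of the 30 list genes in the promoter table against 10.2% of the 14452 genes with both a named probe set and a promoter.

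Amino acid genes were divided. Of 27 genes of the amino acid response 5 were higher and 1 lower, with a median of 0.02. *Slc7a5*, which encodes a transporter of large neutral amino acids, rose by 0.33, *Slc7a1*, which encodes a transporter of basic ones, by 0.31 and *Sesn2*, which encodes a sensor of leucine, by 0.28. *Aldh1l2*, which encodes a mitochondrial folate enzyme, fell by 0.42. None of the 24 genes of the endoplasmic reticulum stress list changed at its brightest probe set, and the largest differences were 0.16 for *Herpud1* (adjusted p = 0.0512 from limma) and -0.15 for *Derl2* (adjusted p = 0.139).

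The *Id* genes were among the largest falls. They encode helix-loop-helix proteins that hold back lineage factors, and in osteoblasts bone morphogenetic proteins (BMPs) are known to switch them on. *Id3* lay at 10.53, 10.70 and 10.45 at 6 h and at 9.53, 9.70 and 9.44 at 24 h, a ratio of 0.498 ± 0.00318 (SD, n = 3 experiments; adjusted p = 2.1e-05 from limma). *Id2* lay at 9.86, 10.03 and 9.29 at 6 h and at 8.69, 9.09 and 8.43 at 24 h, a ratio of 0.505 ± 0.0563. *Id1* lay at 7.72, 8.08 and 7.61 at 6 h and at 6.78, 7.09 and 6.73 at 24 h, a ratio of 0.522 ± 0.019. In each of the 3 genes all 24 h arrays lay below all 6 h arrays, and the mean 6 h level was within 0.08 of the control.

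The other BMP targets that fell did so by less. Of 22 genes of the BMP list 6 were lower (27.3%, against 1.49% of all genes) and 1 higher, with a median of -0.06. The lower ones included *Id1*, *Id2* and *Id3*. *Sostdc1*, which encodes a secreted antagonist of BMP and Wnt, fell by 0.55. The higher one was *Bmp4*, a ligand, at 0.34 (adjusted p = 0.0344 from limma), which was picked for mention after its value was seen. Of 21 genes of transforming growth factor β signalling 4 were lower and 1 higher, with a median of -0.01. *Ltbp2*, which encodes a latent TGF-β binding protein, fell by 0.60, *Tgfbi*, which encodes a matrix protein that TGF-β induces, by 0.58 and *Skil*, which encodes a SMAD corepressor, by 0.31. The palindrome GGCGCC, a GC-rich element that SMAD1/5 can bind, was present in the promoters of 6 of the 12 BMP list genes in the promoter table (50%) and of 20.4% of the 14452 genes.

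A few epithelial and cartilage genes fell as well. *Krt14*, which encodes a keratin of basal epithelium, lay at 9.69, 9.90 and 9.64 at 6 h and at 8.71, 9.0 and 8.63 at 24 h, with no overlap (log2 difference -0.96, standard error 0.03, adjusted p = 8.7e-05 from limma). It changed at 2 of its 3 probe sets, and another had -0.03. *Pkp1*, which encodes a plakophilin of desmosomes, fell by 0.79, *Slurp1*, which encodes a secreted Ly6 protein of skin, by 0.66 and *Cdh1*, which encodes E-cadherin, by 0.79. Of 39 keratinocyte markers 4 were lower and 1 higher, with a median of -0.07. Their summed signal was 12.30 to 12.72 at 6 h and 12.08 to 12.47 at 24 h on the log2 scale. Of the defining markers *Krt5*, *Krt8*, *Krt18* and *Dsp* were dim at both times, at mean levels of 5.32, 4.75, 3.06 and 2.73 at 6 h. *Epcam*, which encodes an epithelial adhesion molecule, lay at 7.75 at 6 h and 7.77 at 24 h. *Trp63*, which encodes the p63 factor of basal epithelium, rose by 0.43. *Ceacam1*, which encodes an adhesion glycoprotein, fell by 0.93 at 1 of its 8 probe sets, and the others lay between -0.04 and that value.

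*Col2a1*, which encodes the collagen of cartilage, lay at 10.11, 10.28 and 9.84 at 6 h and at 9.26, 9.42 and 9.04 at 24 h. The groups did not overlap (ratio 0.560 ± 0.0116, adjusted p = 8.7e-05 from limma). *Cnmd*, which encodes chondromodulin, fell by 0.47, and these were the only changed genes of 21 on the chondrocyte list at their brightest probe sets. *Ahnak2*, which encodes a very large scaffold protein, fell by 0.92, *Anxa8*, an annexin gene, by 0.77 and *Kitl*, the gene of stem cell factor, by 0.44. In cholesterol synthesis 3 of 20 genes were lower and 1 higher, with a median of 0.00. *Tm7sf2*, *Nsdhl* and *Fdps*, which encode enzymes of the pathway, fell by 0.60, 0.35 and 0.23, and *Insig1*, which encodes a brake on it, rose by 0.28.

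Mitosis genes formed the most uniform group. All 57 measured genes of G2 and mitosis had a log2 difference below 0, and 41 of them were lower by limma (71.9% against 1.49% of all genes) and 0 higher. The median was -0.29, and it was -0.34, -0.25 and -0.23 in experiments 1, 2 and 3, against medians of 0.02, 0.00 and 0.00 over all genes. At 6 h the list stood at a median of 0.02 against the control. Among the genes of the 40% brightest probe sets, split by their length in the genome, 2.25% to 3.17% were lower at 24 h. The 41 calls were 45 without experiment 3, 2 without experiment 2 and 0 without experiment 1, and the median then was -0.31, -0.30 and -0.24. *Cenpf*, which encodes a kinetochore protein, lay at 9.48, 9.79 and 9.38 at 6 h and at 8.88, 9.25 and 8.76 at 24 h, with no overlap (log2 difference -0.59, standard error 0.04, adjusted p = 0.00168 from limma). *Aspm*, which encodes a protein of the spindle pole, fell by 0.52, *Hmmr*, which encodes a spindle-bound hyaluronan receptor, by 0.46 and *Mki67*, which encodes the Ki-67 protein of dividing cells, by 0.45. Of the 41 genes 36 were late and 5 crossing. *Aspm* and *Mki67* were among the crossing ones, at 0.14 and 0.16 above the control at 6 h and 0.38 and 0.29 below it at 24 h, so that part of their fall led back to the control level. Other probe sets of *Aspm* and *Hmmr* ranged up to 0.00 and 0.06.

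Fewer S phase genes passed the test. Of 44 genes of DNA replication 4 were lower and 0 higher, with a median of -0.10, and 40 lay below 0. *Prim1*, which encodes the primase subunit, fell by 0.25, *Tk1*, which encodes thymidine kinase, by 0.21, and *Mcm4* and *Lig1*, which encode a helicase subunit and a DNA ligase, by 0.17 each. Of 21 genes of G1 control 1 was higher and 2 lower, with a median of 0.03. *Ccnd2*, which encodes cyclin D2, rose by 0.29, *Cdkn2d*, which encodes an inhibitor of CDK4 and CDK6, fell by 0.27 and *Rbl1*, which encodes the pocket protein p107, fell by 0.21.

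Promoters of mitosis genes often carry the cell cycle genes homology region (CHR), with the letters TTTGAA, next to the start site, where the DREAM and MuvB complexes bind. In the RefSeq promoter table (GRCm38.p6, 250 bases before the start and 50 after it) 47 of the 57 mitosis genes had an entry, and 32 of these (68.1%) held TTTGAA on either strand. Of the 41 lower genes 35 had an entry and 24 held it (68.6%). The share was 15.7% among the 14452 genes with a named probe set and a promoter, and 12.6% among the 285 genes with an entry that rose late. The stretches below are shown because they are promoters of lower mitosis genes with the element within 60 bases before the start. They belong to the 5 with the largest falls among 6 such genes found. The search for them did not take in every chromosome. Each is read on the strand of the gene, 5′ to 3′, and the capitals mark TTTGAA or, where the element is on the other strand, TTCAAA.
Top2a (chr11:99024190-99024249, minus strand): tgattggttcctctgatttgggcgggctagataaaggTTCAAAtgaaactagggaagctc
Ube2c (chr2:164769869-164769928, plus strand): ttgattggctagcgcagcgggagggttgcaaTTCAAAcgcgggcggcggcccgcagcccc
Cdc20 (chr4:118437344-118437403, minus strand): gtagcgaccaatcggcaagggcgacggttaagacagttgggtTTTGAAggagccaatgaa
Prc1 (chr7:80294416-80294475, plus strand): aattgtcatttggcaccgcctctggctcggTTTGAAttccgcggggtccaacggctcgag
Ckap2l (chr2:129297213-129297272, minus strand): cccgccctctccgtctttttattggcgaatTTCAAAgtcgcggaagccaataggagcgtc

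These 5 genes act at successive steps of division. *Top2a*, which encodes the topoisomerase that untangles sister chromatids, had a log2 difference of -0.43. *Ube2c* and *Cdc20*, which encode the ubiquitin-conjugating enzyme and an activator of the anaphase-promoting complex, had -0.33 and -0.32. *Prc1*, which encodes the bundler of midzone microtubules, had -0.31, and *Ckap2l*, a spindle gene, had -0.20. The last base of the element lay 18, 24, 13, 25 and 25 bases before the annotated start of *Top2a*, *Ube2c*, *Cdc20*, *Prc1* and *Ckap2l*. A match of letters describes the promoter and is no measure of binding.

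**Figure D4:**
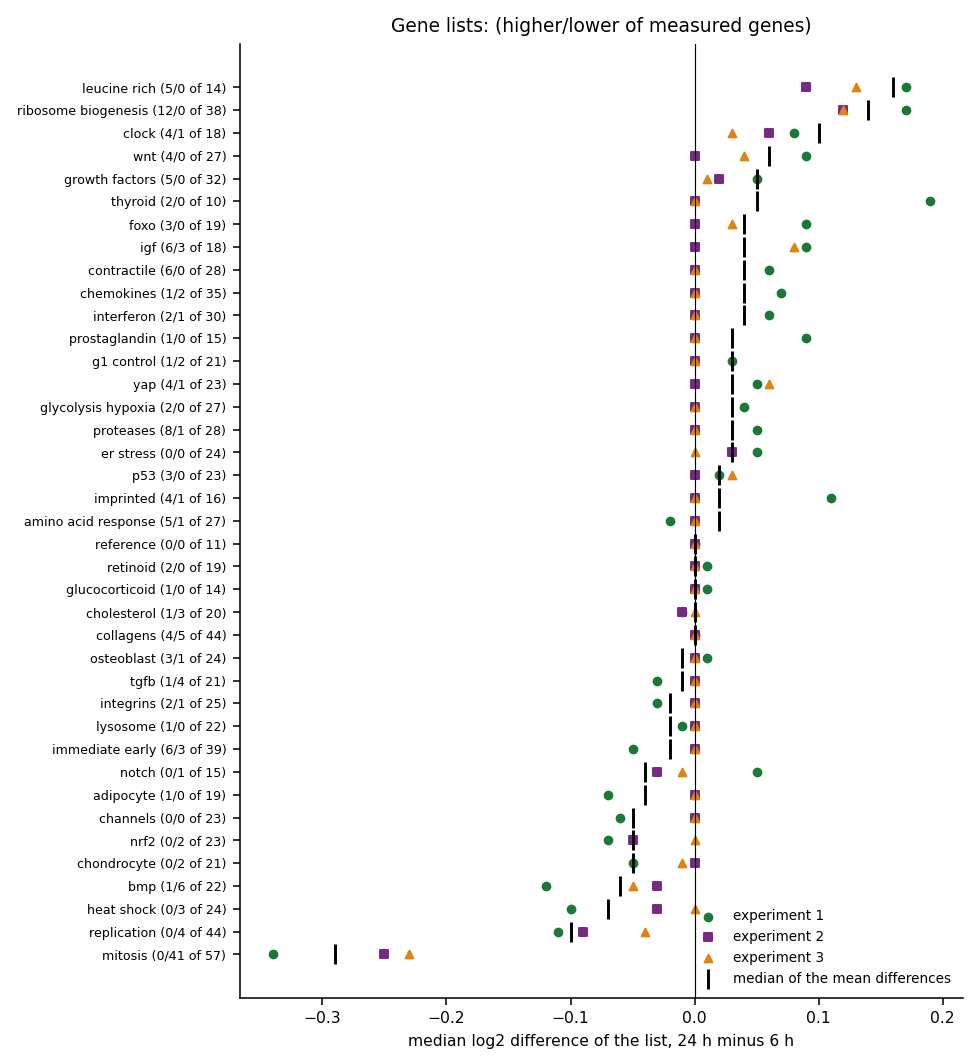
Median log2 difference of 24 h minus 6 h (horizontal axis) for each gene list with at least 10 measured genes, leaving out the cell type markers and the genes that the study picked for quantitative PCR, with a symbol for each experiment and a bar for the median of the mean differences. The numbers beside a name are the genes higher and lower by limma of those measured. The mitosis list lies farthest to the left, with a median of -0.29, and the leucine-rich proteoglycans and ribosome biogenesis lie farthest to the right, with 0.16 and 0.14.

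The crossing genes were led by *Hspb1*, which encodes the small heat shock protein HSP27, an actin-binding chaperone. It lay at 10.26, 10.51 and 10.32 in the control, at 10.82, 11.13 and 10.60 at 6 h and at 9.97, 10.26 and 9.78 at 24 h. The 6 h arrays were above all control and 24 h arrays, and the control lay at 0.58 of the way from the 6 h to the 24 h level. The second probe set of the gene gave the same order, with a log2 difference of -0.82 and a position of 0.62. The promoter is shown for its heat shock element, the pattern GAANNTTC that heat shock factor recognizes. The stretch holds 2 matches, in capitals, whose last bases lie 110 and 90 bases before the start.
Hspb1 (chr5:135887802-135887861, plus strand): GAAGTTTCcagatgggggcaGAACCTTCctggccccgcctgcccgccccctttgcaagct

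Few other heat shock genes changed. Of 24 measured 0 were higher and 3 lower between 6 h and 24 h, *Hspb1* among them, with a median of -0.07. *Hspa4l* and *Hsph1*, which encode HSP110 chaperones, fell by 0.59 and 0.32. All 5 probe sets of *Hspa4l* lay above the control at 6 h, by 0.08 to 0.22, and below the 6 h level at 24 h, with log2 differences of -0.71 to -0.45, and 3 of them changed. The brightest of these was late and the other two were crossing like *Hspb1*. At 6 h *Hsph1* lay 0.10 below the control on the log2 scale, and the list as a whole had a median of -0.01 against the control. The pattern GAANNTTC was found in the promoters of 11 of the 21 genes of the list with an entry (52.4%) and of 7.6% of the 14452 genes.

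Other leading members of the crossing class encode proteins of the cell surface, the nuclear envelope and signalling. *Wnk1*, which encodes a chloride-sensing kinase, lay at 10.67, 10.80 and 9.37 in the control, at 10.99, 11.21 and 9.84 at 6 h and at 10.31, 10.46 and 9.35 at 24 h. Within each experiment the 6 h array was the highest, and the level of experiment 3 was lower throughout. This was 1 of the 3 probe sets of *Wnk1*, and the brightest, at 11.96, 12.15 and 11.61 at 6 h, had a log2 difference of -0.08 and did not pass (adjusted p = 0.336 from limma). *Lrp1*, which encodes a large endocytic receptor, lay at 9.78, 9.94 and 9.62 in the control, at 10.23, 10.44 and 9.85 at 6 h and at 9.62, 9.83 and 9.43 at 24 h, with 6 h and 24 h apart. It fell by 0.54 from 6 h to 24 h (adjusted p = 0.00385 from limma). *Cspg4*, which encodes the proteoglycan NG2, fell by 0.64, *Syne2*, which encodes the nuclear envelope protein nesprin 2, by 0.64 and *Vcan* by 0.54, and the control lay at 0.32, 0.48 and 0.41 of the way. *Cspg4* changed at 2 of 2 probe sets, but *Lrp1* only at 1 of 2, *Syne2* at 1 of 4 and *Vcan* at 3 of 8. Other probe sets of *Lrp1*, *Syne2* and *Vcan* ranged up to -0.07, -0.02 and 0.06. At 6 h those of *Vcan* ranged from -0.26 to 0.32 against the control.

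The lower crossing and reversing genes spanned more of the genome than other changed genes, a property that the classes did not use. For these spans a gene was counted in a class when any of its probe sets was in it. By RefSeq (GRCm38.p6) the 66 genes of these classes had a median span of 66.5 kb, and 34.8% were longer than 100 kb. The 247 genes that fell late had a median of 19.7 kb, with 7.29% over 100 kb, and the 364 that rose late 27.0 kb, with 18.7%. Over all genes among the 40% brightest probe sets the median was 24.7 kb, and 12.9% were over 100 kb. *Hspb1*, at 1.65 kb, is an exception, and *Syne2*, at 293.0 kb, and *Lpp*, at 599.0 kb, are among the long ones. Of the bright genes up to 10 kb long 0.171% were in these classes, of those of 10 to 30 kb 0.328%, of those of 30 to 100 kb 0.601% and of those over 100 kb 1.16%. These shares are a description with no test.

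Over all bright genes the shifts were small. Those over 100 kb lay a median of 0.044, 0.018 and 0.015 above the control at 6 h in experiments 1, 2 and 3, and those up to 10 kb at -0.016, 0.000 and 0.000. From 6 h to 24 h the median of the genes over 100 kb was -0.034 in experiment 1 and 0.000 in experiments 2 and 3. Of the 77 lower crossing and reversing probe sets, 55 lay above the control at 6 h in all 3 experiments, by a median of 0.16, 0.17 and 0.07. The control probe set for 18S ribosomal RNA was above the control at 6 h and below it at 24 h in experiments 1 and 2, and above it at both times in experiment 3. It lay at 11.93, 12.00 and 11.21 in the control, at 12.36, 12.40 and 11.34 at 6 h and at 11.58, 11.74 and 11.31 at 24 h. Its part in the shifts was not tested. The 3′ minus 5′ signal of actin, a sign of RNA quality, was 0.58 to 0.75 at 6 h and 0.54 to 0.75 at 24 h. That of the transferrin receptor was 0.88 in the control, 1.08 at 6 h and 1.27 at 24 h in experiment 1, against 1.28 on all arrays of experiment 2 and 1.17, 1.17 and 1.13 in experiment 3. Its part in the results was not tested.

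**Figure D5:**
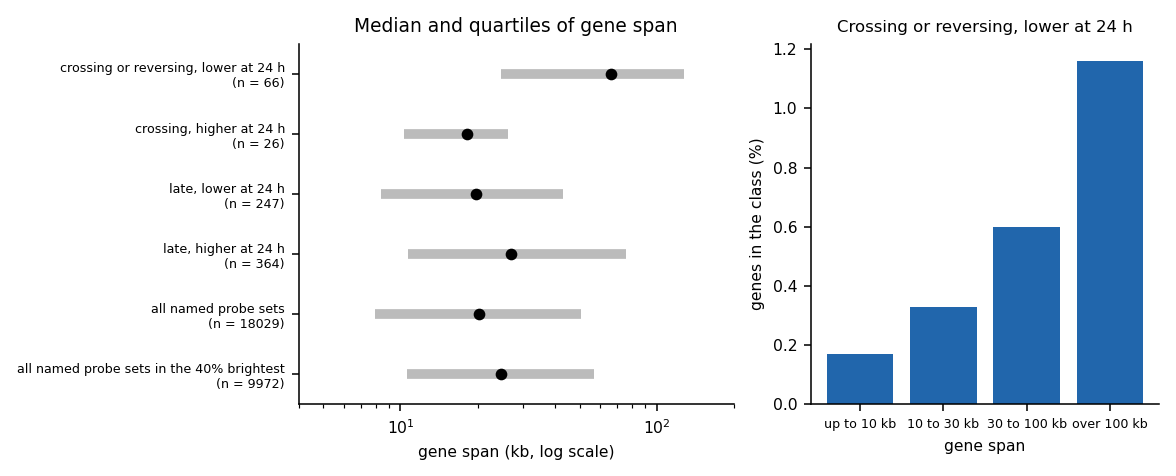
Left, median (point) and quartiles (bar) of the genomic span of genes in kb on a log axis, for the classes of changed genes and for all genes. Right, the percentage of bright genes in each span range that were crossing or reversing and lower at 24 h, which runs from 0.171% up to 10 kb to 1.16% over 100 kb.

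Early shifts that reversed were rare, at 6 probe sets of 5 genes. *Egr1*, the zinc finger factor of the first response to mechanical and growth stimuli, lay at 11.31, 11.63 and 10.97 in the control, at 11.48, 11.79 and 11.22 at 6 h and at 11.35, 11.64 and 10.93 at 24 h. In each experiment the 6 h array was the highest and the control and 24 h arrays lay closer to each other than to it, while the ranges of the groups overlapped because the experiments differed in level. The log2 difference was -0.18 (standard error 0.03, adjusted p = 0.0479 from limma). *Ccn1*, which encodes the matricellular protein CYR61, lay at 6.81, 7.21 and 6.58 in the control, at 7.12, 7.59 and 7.03 at 6 h and at 6.79, 7.21 and 6.80 at 24 h. It fell by 0.31 (adjusted p = 0.0422 from limma), but 2 of its 4 probe sets, both brighter, had differences of 0.07 and 0.13 and another was at -0.34 without passing.

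*Lpp*, which encodes a focal adhesion protein of the zyxin family, was in this class at 2 of its 8 probe sets, with log2 differences of -0.37 and -0.23. At the brighter one it lay at 11.38, 11.50 and 11.19 in the control, at 11.63, 11.80 and 11.27 at 6 h and at 11.36, 11.49 and 11.15 at 24 h. *Smg1*, which encodes a kinase of nonsense-mediated decay, lay at 7.62, 7.89 and 6.26 in the control, at 8.05, 8.23 and 6.74 at 6 h and at 7.53, 7.93 and 6.46 at 24 h. Both genes peaked at 6 h in every experiment, with overlap between the groups. *Lrrc4c*, which encodes a synaptic adhesion protein, was at 2.29, 2.74 and 2.26 at 6 h, among the dimmest values of the arrays. The adjusted p-values of all 6 probe sets from limma lay between 0.0359 and 0.0496, close to the threshold. Each of them was lost under several other settings of limma. After quantile normalization *Egr1* and *Lrrc4c* did not pass (adjusted p = 0.0736 and 0.0545), and without experiment 3 they did not pass either (0.0527 and 0.186). After median centring *Smg1*, *Ccn1*, *Lrrc4c* and the probe set of *Lpp* with the larger fall did not pass (0.0652, 0.0801, 0.0806 and 0.0514). With the experiment as a random effect that probe set of *Lpp*, *Smg1*, *Lrrc4c* and *Egr1* did not pass (0.083, 0.116, 0.0538 and 0.108). Without the intensity trend, and without experiment 1 or experiment 2, none of the 6 passed.

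The opposite course, a dip at 6 h and a rise above the control at 24 h, was met by 27 crossing probe sets of 26 genes. Their median was -0.10 against the control at 6 h and 0.21 at 24 h. *Sesn2* lay at 7.13, 7.51 and 6.20 in the control, at 6.93, 7.41 and 6.18 at 6 h and at 7.32, 7.71 and 6.34 at 24 h. The dip was seen in all 3 experiments and was smallest in experiment 3.

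A further group had started to move at 6 h and went on in the same direction. *Plagl1* lay at 10.36, 10.69 and 10.33 in the control, at 10.58, 10.83 and 10.49 at 6 h and at 11.08, 11.40 and 11.20 at 24 h, with 24 h apart from the rest. *Fbxo32*, which encodes the ubiquitin ligase atrogin 1, a FOXO target, lay at 8.30, 8.55 and 8.0 in the control, at 8.54, 8.69 and 8.20 at 6 h and at 8.96, 9.19 and 8.84 at 24 h. At these probe sets both stepped upward in every experiment. Another changed probe set of *Fbxo32* went from 7.33, 7.49 and 7.14 in the control to 7.15, 7.51 and 7.04 at 6 h and 7.72, 7.89 and 7.53 at 24 h, so that it rose only after 6 h. *Mylk* at a second probe set rose by 0.14 up to 6 h and by 0.49 after it. *Fap*, which encodes a protease of activated fibroblasts, had differences of 0.22 and 0.66, and *Tgfbi* at another probe set of -0.14 and -0.52. None of the 6 h steps passed the test against the control.

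Defining markers of the cells fitted the labelled type only in part. The 14 measured mesenchymal markers had a median level of 12.33 at 6 h and 12.29 at 24 h, with *Col1a2*, a chain of type I collagen, at a mean of 14.19 at both times, and none of them changed. *Sp7*, which encodes osterix, was at 6.95 and *Alpl*, the gene of the alkaline phosphatase of osteoblasts, was dim at 4.89 at 6 h and 5.30 at 24 h (adjusted p = 0.193 from limma). Of 20 macrophage markers *Lyz1* and *Lyz2*, which encode lysozymes, rose by 0.59 and 0.41. The summed signal of these markers was 9.65 to 9.95 at 6 h and 9.83 to 10.16 at 24 h, and the defining markers *Ptprc*, *Cd68*, *Adgre1* and *Itgam* lay at 2.85, 3.68, 3.69 and 2.87 at 6 h, near the lower end of the arrays. Of 15 endothelial markers only *Flt1*, a VEGF receptor gene, changed, at -0.37, with *Pecam1* and *Cdh5* at 3.32 and 3.38. None of the 12 neural markers changed.

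Lists of other stress and signalling programs had few or no changed members. Of 30 interferon-related genes 2 were higher, *Gbp8* at 1.34 and *Gbp6* at 0.70, both interferon-inducible GTPase genes, and *Ifit2* was lower at -0.22. *Ackr4*, which encodes a scavenging chemokine receptor, rose by 1.10 at 1 of 3 probe sets, and the lowest of these had -0.11. Of 27 genes of glycolysis and hypoxia *Car9*, which encodes a carbonic anhydrase that hypoxia induces, was higher at 0.97 and *P4ha1*, which encodes a collagen prolyl hydroxylase, at 0.17. Of 23 genes of the NRF2 response 0 were higher, and *Nqo1* and *Txn1*, which encodes thioredoxin, were lower. None of the 23 genes of mechanosensitive and other channels and receptors and none of the 6 measured histone genes changed at the brightest probe set. Of 85 named genes with several probe sets and at least 1 changed, 23 had probe sets of both signs, and in 0 of them did probe sets change in both directions.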

How the data were processed

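The authors hybridized labelled cRNA to whole-genome mouse arrays of Affymetrix and deposited the signals as log2 values made with RMA, per the labels. Its version and settings are not given in the sources used here. RNA integrity numbers were high, per the labels. The replicate number of an array was taken as the number of its experiment. Same-numbered arrays deviated together from the group means (correlations 0.70 to 0.93, and at most 0.01 between numbers), so the numbers pair the arrays.

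The deposited values were used as they were. Limma 3.58.1 in R 4.3.3 (lmFit and eBayes with an intensity trend) was fitted to the 9 arrays, the experiment being a fixed block, with Benjamini-Hochberg adjustment over 45037 probe sets. Mean ratios and their SD are over the 3 experiments. Gene lists were counted on 1 probe set for each gene, that of the highest mean, without a set test. Symbols came from the platform annotation, checked against RefSeq. The number of arrays, 3 in each group, limits the precision.

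The named genes were the 15 largest rises and falls, at most 4 changed genes from each list (by value, 2 where none changed), the leading reversing, crossing and early genes, the genes the study chose for PCR, and *Actb*. The comparison, the members and the lists were chosen with earlier results of these data known, and several lists hold genes that the study picked on these samples. A simulation of the 24 h against 6 h comparison covered 45037 probe sets. In it 8, 30, 45 and 49 of 50 probe sets changed by 1.2-fold, 1.5-fold, 2-fold and 3-fold were recovered, and 5 unchanged ones were called. The simulated noise held neither the exactly equal levels of experiments 2 and 3 nor the wider spread of experiment 1. These counts therefore give no rate of false calls in the real data. Alternatives to the block, trend, arrays, filter, normalization, weights, test, thresholds, position bounds and experiments were run.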

Additional observations from a re-analysis of the deposited data

How the results depend on the processing

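The counts depended strongly on the fit. All 144 changed probe sets among the 159 named kept their sign in the fits that held them. Other blocks, trends, filters and tests, and the 6 LIPUS arrays alone, leave the mean difference unchanged, so no sign could turn there. Signs could turn only with another normalization or with array weights, since each change also had the same direction in every experiment. Without the replicate block the test called 0 probe sets, higher, lower, late, crossing or reversing, and a paired t-test and the methods' t-test called 0 after adjustment. Before adjustment, 299 probe sets had p under 0.05 by the methods' t-test, 179 higher and 120 lower. With the block as a random effect 1069 probe sets changed, of which 791 were among the 909. Without the intensity trend 354 changed (217 higher, 137 lower, 323 late, 31 crossing, 0 reversing). With only the 6 LIPUS arrays and the replicate block, which leaves fewer degrees of freedom, 8 changed (5 higher, 3 lower, 7 late, 1 crossing, 0 reversing). Among the 40% brightest probe sets 1384 changed (767 higher, 617 lower), with 197 crossing and 15 reversing. Quantile normalization gave 1080, with 150 crossing and 13 reversing, and median centring 694. Array weights gave 5482 (2896 higher, 2586 lower), with 2459 late, 1259 crossing and 99 reversing. At an adjusted p under 0.01 there were 299 (173 higher, 126 lower, 277 late, 22 crossing, 0 reversing), and under 0.1 there were 1348, with 187 crossing and 15 reversing. With bounds of 0.33 and 0.67 the crossing class held 54. When 1 experiment was left out, the changed probe sets ranged from 0 to 1498, the higher from 0 to 683, the lower from 0 to 815, the late from 0 to 1018, the crossing from 0 to 369 and the reversing from 0 to 109. The lowest values were without experiment 1 and the highest without experiment 3. A ratio of 1.3 in all experiments was met by 124 higher and 72 lower probe sets and a ratio of 2 by 6 and 0. In the remaining pairs of experiments a ratio of 1.5 was met by 43 to 50 higher and 19 to 49 lower ones. The cause of these shifts was not tested. Leaving out experiments for the gene lists was chosen after seeing the data.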
